A study of Rattus norvegicus with 30 samples.

Results

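The comparison described here set rat bone marrow mesenchymal stem cells (BMSCs) held for 72 h in osteogenic medium against the same kind of cells before induction (0 h). Both groups were chosen by their labels, and they held 3 samples each, 6 of the 30 samples of the series. BMSCs had been flushed from the femurs and tibias of 3 female Sprague Dawley rats aged 3 weeks, grown in DMEM with 10% FBS and used at passage 2. How these rats were divided among the samples is not given. For each sample 3 cultures were pooled, and the osteogenic medium was a commercial one whose composition is not given in the sources used here. The other 8 groups, of 3 samples each, were osteogenesis at 3 h and 12 h, and adipogenesis and chondrogenesis at 3, 12 and 72 h. No sample of uninduced cells at 72 h is among those analysed here, so time in culture and the medium cannot be told apart in any difference from 0 h. No label says that the samples of a group came from separate animals, though the paper describes its counts as based on 3 independent experiments. The p-values therefore measure only the spread within groups, estimated over all 30 samples, which may be technical. In bulk RNA, fewer cells of a type and less RNA per cell cannot be told apart.

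BMSCs are stromal cells of the marrow that can be driven towards bone, fat or cartilage. On the way to bone they first divide, then leave the cell cycle, lay down a collagen-rich matrix and only later mineralize it. Osteogenic media usually hold a glucocorticoid, ascorbate and a phosphate source, and they act on a network that includes BMP, TGF-β and Wnt signalling and the transcription factors (TFs) Runx2 and Sp7. Early in this course, genes of the hormone response, of the cell cycle and of secreted signals are known to move before the late bone proteins do.

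Each library held between 6409225 and 6702790 reads at 72 h and between 6594559 and 7179051 at 0 h, so that 3 reads, taken here as the floor of detection, were worth 0.418 to 0.468 CPM (reads of a gene in 1000000 reads of the library). The table held 9999 gene names, of which 4363 reached 1 CPM in at least 3 of the 30 libraries and were tested. The listed genes took 53.7% to 54.2% of all reads at 0 h and 56.5% to 59.5% at 72 h. Replicates of each group correlated at 0.991 to 0.993 across genes on the log2 scale. Among the 72 h libraries of adipogenesis, replicate 3 stood apart, with 74 genes over 2 log2 units from the mean of the other replicates of its group, against 13 for each of the other 2, and most adipogenesis means printed here are also given without it. All 10 groups shared 1 estimate of the spread, so this replicate also enters the standard errors (SE) and p-values against 0 h. For Sfrp2, for instance, the adipogenesis samples held 1702, 1696 and 36.7 CPM. The table is also uneven by gene: Actb, the main cytoskeletal actin, was listed at only 0.557 to 3.01 CPM at 0 h and 0.624 to 1.49 CPM at 72 h, and Vim, the intermediate filament vimentin, at a mean of 0.243 CPM and 0.102 CPM. A value at or near 0 under a gene name is therefore not read here as absence of the transcript.

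The labelled cell type was checked against marker lists. Of 12 mesenchymal stromal markers in the table, Thy1, Cd44, Itgb1 and Cd81 had means of at least 302 CPM in both groups. The other 8 (Alcam, Eng, Ly6e, Nes, Pdgfra, Pdgfrb, Vcam1 and Vim) were at most 1.82 CPM in any of the 6 libraries, and 6 of them did not pass the filter. The summed level of the list, 16744 to 17546 CPM at 0 h and 17345 to 18889 CPM at 72 h, was therefore nearly all from the 4 high genes. Of 25 macrophage and blood cell markers, 7 were in the table, with Adgre1, Lyz2, Cybb and Mrc1 at 0 in the 6 libraries, and their sum was 0.303 to 1.39 CPM at 0 h and 1.34 to 2.18 CPM at 72 h. For osteoclasts, 3 of 10 markers were in the table and summed to 0.455 to 0.975 CPM at 0 h and 0.156 to 0.603 CPM at 72 h. Endothelial markers, 7 of 15 in the table, summed to 4.25 to 5.29 CPM and then 7.33 to 10.2 CPM, with Erg and Sox17 at 0. Of their 3 tested members, Tek, an angiopoietin receptor, rose by 2.12 on the log2 scale, and Mmrn2 rose by 1.03. Vwf went the other way, at -0.76, and was not called. Mmrn2 was not called when libraries were rescaled by median ratios or TMM, without the filter on low values, or without replicate 3 at 72 h (0.87) or replicate 1 or 2 at 0 h (1.01 and 1.0). Pericyte and smooth muscle markers, 9 of 10 in the table, summed to 112 to 123 CPM at 0 h and 87.7 to 92.8 CPM at 72 h. The part of these other cell types in the results was not tested.

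At 72 h of osteogenesis, 545 of 4363 tested genes differed from 0 h, by at least 1 on the log2(CPM + 1) scale and at an adjusted p under 0.05, which is 12.5% of those tested. Of these DEGs, 314 were higher (7.2%) and 231 were lower (5.29%). In 542 of the 545, the 3 samples at 72 h did not overlap the 3 at 0 h, whereas 1979 of all tested genes (45.4%) did not overlap. A change of at least 2 log2 units was seen in 153 DEGs, 78 higher and 75 lower. The median change over all tested genes was 0.08. The balance of higher and lower DEGs moved with the scaling of the libraries: 57.6% were higher on CPM, against 48.2% and 48.1% when libraries were rescaled by median ratios or TMM and 48.4% in edgeR on reads.

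By gene group, DNA replication and mitosis held 15 lower and 0 higher of 32 tested, and cytokines and chemokines 11 lower and 0 higher of 19. Axon guidance and semaphorin genes held 10 higher and 1 lower of 26, and osteoblast TFs 7 higher and 1 lower of 17. The called osteoblast TFs are among those the paper reports for these same samples, so their count is a description only. Genes of cholesterol and fatty acid synthesis (19 tested), of the respiratory chain (37 tested) and Hox genes (7 tested) held no DEG. The shares of DEGs over all tested genes, 7.2% higher and 5.29% lower, are the background for these counts and for those of every list that follows, and a list with shares near them is described without reading anything from its count.

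**Figure D1:**
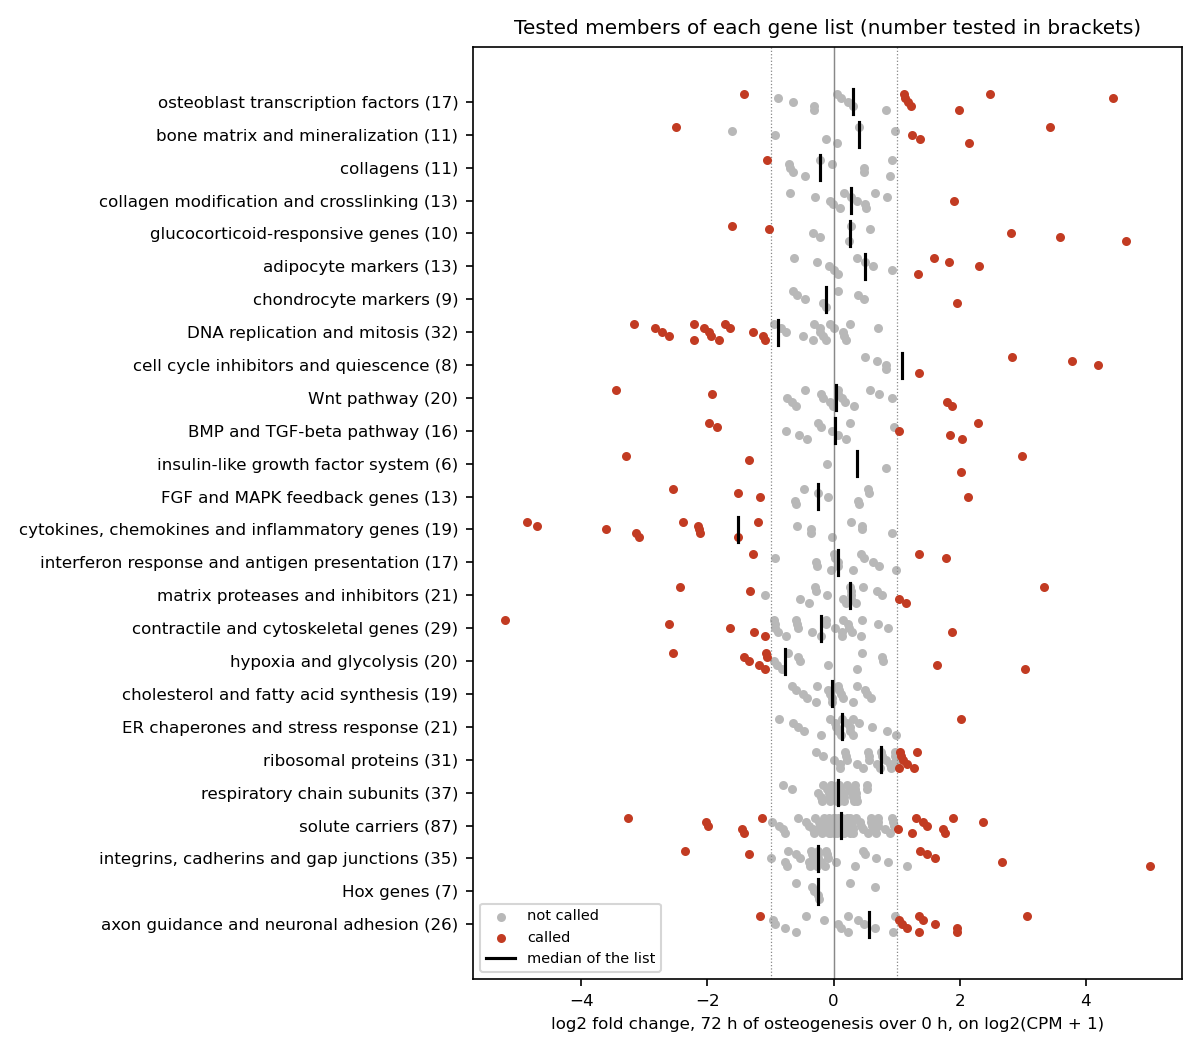
Difference in mean log2(CPM + 1) between 72 h of osteogenesis and 0 h (x axis) for each tested gene of each gene list (y axis). Each point is 1 gene, red points are DEGs, grey points are not, black bars are list medians and dotted lines mark a log2 change of 1 either way, and the lists of DNA replication and mitosis and of cytokines have the lowest medians, -0.89 and -1.52.

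Among the rises, Ace, the angiotensin-converting enzyme, went from 0.286, 0.836 and 0.607 CPM at 0 h to 72.8, 66.2 and 73.4 CPM (log2 change 5.52, adjusted p = 1.33e-13), and the groups were far apart. Adipogenesis reached a mean of 47.0 CPM (61.3 CPM without its replicate 3), which did not differ from osteogenesis by the thresholds used, while chondrogenesis stayed at 1.98 CPM. Cldn1, a tight junction protein, went from 0.859, 0.139 and 0 CPM to 49.1, 36.8 and 36.9 CPM (log2 change 5.02). Its mean had reached 33.8 CPM by 12 h, and at 72 h it was 3.08 log2 units above adipogenesis (2.65 without its replicate 3) and 3.81 above chondrogenesis.

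Spon1, which encodes the matrix protein F-spondin, changed direction over time. Its values were 40.4, 40.8 and 36.7 CPM at 0 h and 1203, 1172 and 1254 CPM at 72 h (log2 change 4.91, SE 0.13, adjusted p = 7.54e-23). It had first been lower, at a mean of 12.7 CPM at 3 h and 10.8 CPM at 12 h, and at 72 h it reached 2390 CPM in adipogenesis (2629 CPM without its replicate 3) and 716 CPM in chondrogenesis. Fibin, a secreted factor, took the same course, from 11.3, 10 and 14.4 CPM through means of 2.71 and 1.91 CPM at 3 h and 12 h to 163, 176 and 174 CPM (log2 change 3.75). In both genes the fall at 12 h and the rise at 72 h passed the test against 0 h.

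Tsc22d3, which encodes the glucocorticoid-induced leucine zipper protein, stood at 31.1, 26.9 and 25.3 CPM at 0 h and at 599, 784 and 766 CPM at 72 h (log2 change 4.63, SE 0.15, adjusted p = 2.79e-20). Adipogenesis and chondrogenesis at 72 h had means of 406 CPM (364 CPM without replicate 3 of adipogenesis) and 492 CPM, neither of which differed from osteogenesis by the thresholds used. Txnip, which binds thioredoxin and restrains glucose uptake, rose in steps, from 69.3, 78.1 and 75.7 CPM at 0 h through means of 425 CPM at 3 h and 995 CPM at 12 h to 1430, 1335 and 1389 CPM at 72 h (log2 change 4.20). Its level at 72 h was 2.65 log2 units above adipogenesis (2.68 without its replicate 3) and 1.46 above chondrogenesis. Snai2, the zinc finger TF also called Slug, went from 7.59, 5.85 and 7.89 CPM to 170, 171 and 178 CPM (log2 change 4.43), with all of the rise after the 12 h mean of 8.35 CPM.

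Ramp1, a partner of the calcitonin receptor-like receptor, had no read at 0 h and 16.4, 12.2 and 16.1 CPM at 72 h, at least 34.3-fold above the floor of 3 reads per library. Adipogenesis at 72 h had no read of it either. Cacna1h, a T-type calcium channel, likewise went from no read to 11.2, 13.7 and 13.7 CPM, at least 29.6-fold. C5ar2, a receptor of the complement fragment C5a, went from 2.86, 1.81 and 1.06 CPM to 47.0, 52.1 and 64.2 CPM (log2 change 4.29, adjusted p = 8.07e-06). Mertk, the receptor tyrosine kinase that binds Gas6 and takes part in clearing dead cells, went from 12.6, 7.1 and 8.8 CPM to 104, 114 and 128 CPM (log2 change 3.50). Its ligand Gas6 rose as well, from 7.59, 5.99 and 9.86 CPM to 64.6, 60.5 and 57.0 CPM (log2 change 2.83, adjusted p = 1.27e-10).

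Smpd3, the neutral sphingomyelinase that bone needs in order to mineralize, went from 0.143, 0.279 and 0.607 CPM to 13.0, 15.9 and 11.6 CPM (log2 change 3.44, SE 0.27, adjusted p = 1.75e-11). All 3 samples at 72 h lay far above every other group shown for it, whose means were 0.599 CPM at 3 h, 0.0508 CPM at 12 h, 0.474 CPM in adipogenesis (0.712 CPM without its replicate 3) and 0.0737 CPM in chondrogenesis. Ccnd2, which encodes cyclin D2, went from 1.0, 1.39 and 1.36 CPM to 29.7, 27.9 and 31.8 CPM (log2 change 3.78). A further 6 of the 20 largest rises had log2 changes of 5.08 (LOC100911545), 4.79 (Clmn), 4.09 (Angptl7), 3.59 (Crispld2), 3.47 (Kank4) and 3.44 (PCOLCE2, an enhancer of procollagen processing).

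**Figure D2:**
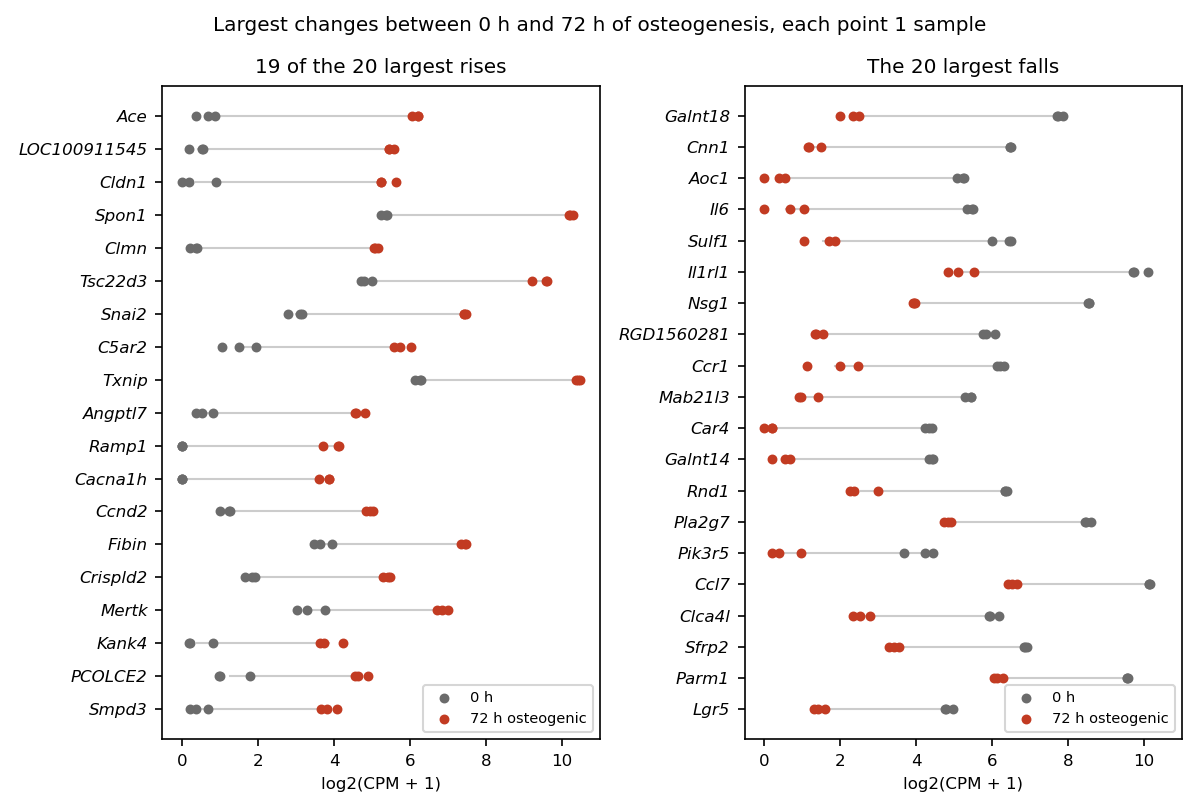
Of the largest changes, 19 of the 20 rises (left) and the 20 falls (right), with log2(CPM + 1) on the x axis, grey points for the 3 samples at 0 h, red points for the 3 samples at 72 h of osteogenesis and grey lines between the group means. Groups that do not overlap were part of the rule that chose these genes, so the gap between red and grey points is a description. The longest line among the falls is that of Galnt18, from 209 to 235 CPM at 0 h to 2.98 to 4.67 CPM at 72 h.

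Of the 20 largest rises, 15 were also higher at 72 h than at 12 h of osteogenesis, where 23.2% of tested genes were DEGs and 9.67% were higher. At 72 h, 11 of them were higher in osteogenesis than in adipogenesis, against which 13.7% of tested genes were DEGs and 9.21% were higher. Likewise 11 were higher than in chondrogenesis, against which 19.6% were DEGs and 8.55% were higher. Most of the rises were not particular to osteogenic medium. Against the same samples at 0 h, 16 of the 20 were also called higher at 72 h of adipogenesis and 15 at 72 h of chondrogenesis, and 0 were called lower. LOC100911545, Cldn1, Clmn, C5ar2, Txnip, Ramp1, PCOLCE2 and Smpd3 were among the 9 genes that stood above both other media. Without replicate 3 of adipogenesis, Cacna1h was no longer called against it and Spon1 was called lower, and the other calls of these 20 genes against adipogenesis held. Rescaling, or edgeR, which changed the model as well, had a like effect. Spon1 was called lower than in adipogenesis by median ratios, TMM and edgeR. Cacna1h lost its call there by median ratios and edgeR but not by TMM, and Snai2 lost its call against chondrogenesis by all 3. Crispld2, a secreted protein, was on the contrary lower in osteogenesis than in both, at 42.1, 38.1 and 43.2 CPM against means of 229 CPM in adipogenesis and 1957 CPM in chondrogenesis. Angptl7, at 22.7, 27.0 and 22.8 CPM, was far below the 8135 CPM of chondrogenesis. The comparisons of 72 h of osteogenesis with 12 h and with the other media share its 72 h samples with the comparison against 0 h. That comparison chose these genes, so counts above the shares are a description. The balance of higher and lower DEGs in these comparisons also moved with the scaling: against 12 h, 41.7% were higher on CPM and 51.4%, 55.4% and 60.2% by median ratios, TMM and edgeR, and against adipogenesis 67.1% were higher on CPM and 41.8%, 47.7% and 44.4% by the same 3.

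Among the falls, Galnt18, an enzyme that starts O-linked glycans, had the largest change. Its values were 209, 235 and 212 CPM at 0 h and 2.98, 4.06 and 4.67 CPM at 72 h (log2 change -5.50, SE 0.22, adjusted p = 3.53e-18). It was lower at 72 h of osteogenesis than in adipogenesis and chondrogenesis, whose means were 15.1 CPM (11.5 CPM without replicate 3) and 19.6 CPM. Galnt14, of the same enzyme family, fell from 19.1, 20.9 and 20.5 CPM to 0.448, 0.156 and 0.603 CPM (log2 change -3.93). Sulf1, which trims sulfate from heparan chains, fell from 90.0, 86.5 and 62.5 CPM to 1.04, 2.65 and 2.26 CPM (log2 change -4.78).

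Cnn1, the smooth muscle calponin that marks contractile cells, first rose and then fell. It was at 87.1, 88.7 and 88.0 CPM at 0 h, at a mean of 387 CPM at 3 h, and at 1.79, 1.25 and 1.21 CPM at 72 h (log2 change -5.21, SE 0.17, adjusted p = 1.4e-20). The mean of 2.16 CPM in adipogenesis did not differ from it by the thresholds used, whereas chondrogenesis stood 4.66 log2 units higher, at 59.6 CPM. Rnd1, a small GTPase that opposes contraction, fell from 80.2, 83.4 and 79.6 CPM to 4.18, 7.02 and 3.77 CPM (log2 change -3.82), below both other media.

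Il1rl1, the receptor of interleukin-33, went from 835, 859 and 1100 CPM to 44.8, 27.8 and 33.4 CPM (log2 change -4.70, adjusted p = 9.12e-12). Ccr1, a chemokine receptor, had a mean of 217 CPM at 12 h, and went from 79.2, 69.1 and 73.4 CPM at 0 h to 1.19, 2.96 and 4.52 CPM at 72 h (log2 change -4.36). Both were nonetheless above chondrogenesis at 72 h, by 2.14 and 1.49 log2 units. Pla2g7, which breaks down platelet-activating factor, went from 390, 351 and 358 CPM to 25.8, 29.5 and 27.4 CPM (log2 change -3.69).

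Sfrp2, a secreted Wnt modulator, and Lgr5, a receptor of R-spondins that marks stem cells of several tissues, also fell. Sfrp2 went from 116, 120 and 113 CPM to 9.70, 10.8 and 8.74 CPM (log2 change -3.45, SE 0.75, adjusted p = 0.000626), while its mean was 1145 CPM at 72 h of adipogenesis (1699 CPM without replicate 3). Lgr5 went from 30.1, 26.6 and 26.2 CPM to 1.49, 2.03 and 1.66 CPM (log2 change -3.40, adjusted p = 1.5e-05). Parm1, a mucin-like membrane protein, went from 754, 767 and 748 CPM to 65.6, 77.9 and 69.3 CPM (log2 change -3.40, adjusted p = 1.09e-20). All 3 genes were lower than in both other media at 72 h, as were Galnt18, RGD1560281 and Rnd1, and the 6 calls against adipogenesis held without its replicate 3.

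The other falls among the 20 largest were those of Aoc1 (log2 change -4.88), a diamine oxidase, Nsg1 (-4.60), RGD1560281 (-4.49), Mab21l3 (-4.30), Car4 (-4.18), a carbonic anhydrase, Pik3r5 (-3.61), Clca4l (-3.47), and Il6 and Ccl7, described with the cytokines. Of the 20, 17 were lower at 72 h than at 12 h of osteogenesis, where 13.5% of tested genes were lower, and 14 when libraries were rescaled by median ratios or TMM, which dropped Mab21l3, Pik3r5 and Ccl7. At 72 h, 11 were lower than in adipogenesis (4.52% of tested genes) and 11 lower than in chondrogenesis (11.1%). The 20 genes were chosen for low values in the same osteogenic samples, so counts above these shares are a description. Against the same samples at 0 h, 17 of the 20 were also called lower at 72 h of adipogenesis, where Sfrp2 was called higher. In chondrogenesis 16 were called lower and 0 higher. Aoc1, Nsg1, Galnt14 and Clca4l were also called lower than in adipogenesis by median ratios, TMM and edgeR, and edgeR added Mab21l3 as lower and Ccr1 as higher. Without replicate 3 of adipogenesis, Il1rl1 was no longer called higher than in adipogenesis and Galnt14 and Clca4l became lower.

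Known bone genes moved unevenly. Of 17 tested osteoblast TFs, 7 rose and 1 fell, with a median log2 change of 0.30, and of 11 tested genes of bone matrix and mineralization 4 rose and 1 fell, with a median of 0.41. No row was found for Runx2 and Col1a1, which are not analysed here. Sp7, the TF needed for osteoblast formation, had no read in the 6 libraries. Alpl (alkaline phosphatase) and Spp1 (osteopontin) had at most 2 reads in any of them, and no fold is given. Bglap (osteocalcin) was too low to be tested, at 0, 0.139 and 0.455 CPM at 0 h and 0.448, 0.468 and 0.904 CPM at 72 h.

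Ibsp, the bone sialoprotein, stood at 2.86, 2.65 and 2.12 CPM at 0 h and at 2.69, 4.06 and 1.66 CPM at 72 h, and the groups overlapped. Its log2 change was 0.06 (adjusted p = 0.925), and the sign turned with another scaling of the libraries. Chondrogenesis at 72 h had a mean of 247 CPM. Mgp, the matrix Gla protein that inhibits mineralization, was at 2750, 2604 and 2603 CPM at 0 h and at 4867, 5545 and 5171 CPM at 72 h. The groups did not overlap, but the log2 change of 0.97 (adjusted p = 0.00146) was just under the threshold of 1, and it was 1.01 without replicate 1 at 72 h. In between, Mgp had dropped to means of 173 CPM at 3 h and 143 CPM at 12 h, so that its level at 72 h was 5.18 log2 units above that at 12 h.

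Among TFs, Dlx3, a homeobox factor of bone and teeth, went from 27.9, 29.4 and 31.7 CPM to 155, 180 and 175 CPM (log2 change 2.48, adjusted p = 7.91e-08). It was above adipogenesis by 1.74 log2 units (2.03 without its replicate 3) and above chondrogenesis by 4.28. Hopx, a homeodomain-only protein, went from 0, 0.975 and 0 CPM to 3.43, 4.37 and 4.22 CPM (log2 change 1.99), after a mean of 13.9 CPM at 12 h. Meox2, another homeobox factor, took a course like that of Mgp, at 283, 321 and 263 CPM at 0 h, means of 34.3 and 69.4 CPM at 3 h and 12 h, and 616, 680 and 668 CPM at 72 h (log2 change 1.18). Msx2, a homeobox factor of the skull (1.14, or 0.95 and not called without replicate 1 at 0 h), Hic1 (1.23) and Nfia (1.12) rose by smaller steps. Scx, the tendon factor scleraxis, fell from 3.29, 1.95 and 2.58 CPM to 0, 0.468 and 0.603 CPM (log2 change -1.42), while chondrogenesis reached 26.2 CPM.

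In the matrix group, Itgbl1, a secreted integrin-like protein, went from 160, 170 and 167 CPM to 685, 753 and 791 CPM (log2 change 2.15, SE 0.54, adjusted p = 0.00244). Chondrogenesis reached the same mean level, 739 CPM, and adipogenesis had 110 CPM (162 CPM without its replicate 3). Gpnmb, a glycoprotein also called osteoactivin, went from 1537, 1553 and 1541 CPM to 3463, 3710 and 3820 CPM (log2 change 1.25, adjusted p = 1.09e-12), after means of 380 and 379 CPM at 3 h and 12 h. Postn, the matrix protein periostin, rose from 1 read in each library at 0 h to 1.19, 2.65 and 2.26 CPM (log2 change 1.37). Tnfrsf11b, which encodes osteoprotegerin, the decoy receptor that holds back osteoclasts, fell from 300, 325 and 281 CPM to 46.8, 53.0 and 57.3 CPM (log2 change -2.51, adjusted p = 1.09e-11).

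**Figure D3:**
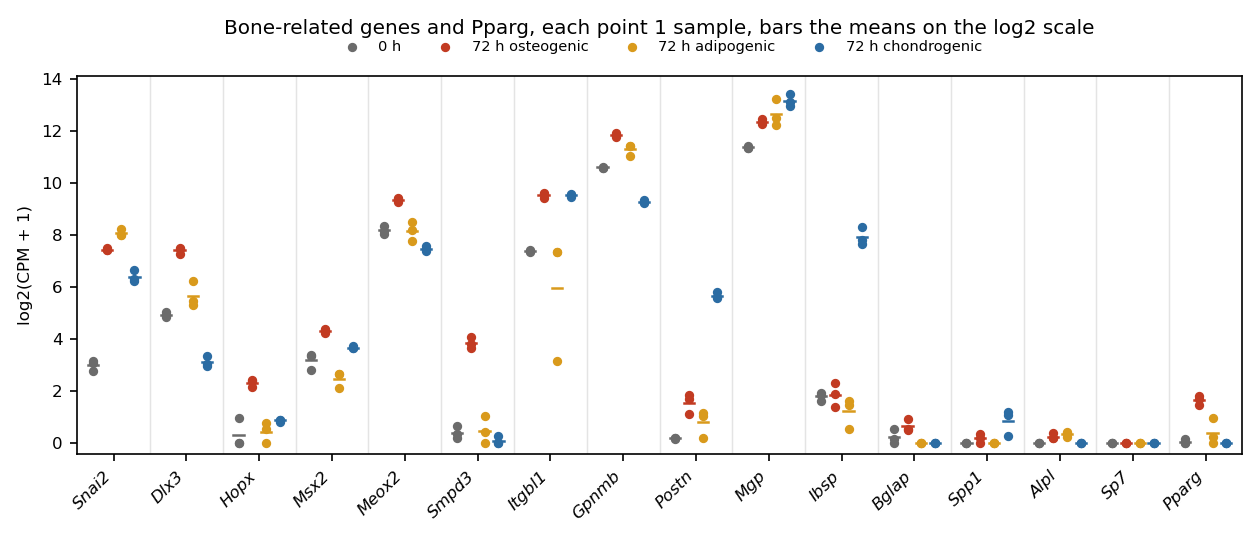
log2(CPM + 1) of bone-related genes and Pparg in each sample (points) with group means (bars) at 0 h (grey) and at 72 h of osteogenesis (red), adipogenesis (yellow) and chondrogenesis (blue). The red points of Dlx3, 155 to 180 CPM, lie above all grey ones, while those of Ibsp, 1.66 to 4.06 CPM, overlap them.

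Of 11 tested fibrillar and other collagens, 0 rose and 1 fell (9.09% called, against 12.5% of all tested genes), with a median of -0.22. Col1a1, Col1a2 and Col3a1 were not among the 24 collagen names in the table, so this count says nothing about them. The one that fell was Col24a1, from 5.01, 4.60 and 3.79 CPM to 1.49, 1.87 and 1.51 CPM (log2 change -1.06, not called without replicate 1 at 0 h, at -0.98, or with a pseudocount of 0.1). Of 13 tested collagen-modifying enzymes, 1 rose. This was Loxl3, a lysyl oxidase that cross-links collagen, at 635, 666 and 604 CPM at 0 h and 2322, 2256 and 2569 CPM at 72 h (log2 change 1.90, SE 0.19, adjusted p = 3.24e-09). The samples at 72 h lay far above adipogenesis and chondrogenesis, with means of 272 CPM (286 CPM without replicate 3 of adipogenesis) and 480 CPM.

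Glucocorticoids enter the cell, bind a nuclear receptor and switch on a small set of genes in most cell types. Of 10 tested genes of this response, 3 rose and 2 fell, with a median of 0.26, and Fkbp5 is not analysed here. Beside Tsc22d3, Mt2A, a metal-binding metallothionein, went from 342, 316 and 410 CPM to 2512, 2460 and 2488 CPM (log2 change 2.81, SE 0.13, adjusted p = 8.22e-17). The group's other riser was Crispld2. Hsd11b1, the enzyme that regenerates active glucocorticoid inside cells, fell from 1246, 1208 and 1056 CPM to 341, 401 and 399 CPM (log2 change -1.62, adjusted p = 2.59e-14). Mgst1, a glutathione transferase of membranes, fell from 212, 207 and 223 CPM to 107, 105 and 103 CPM (log2 change -1.02, or -0.99 and not called without replicate 3 at 0 h).

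BMPs and TGF-β bind serine/threonine kinase receptors, and secreted antagonists limit how far they act. Of 16 tested genes of this pathway, 4 rose and 2 fell, and the median of 0.02 changed sign with the scaling. The co-receptor Tgfbr3 (betaglycan) was at 853, 852 and 885 CPM at 0 h and 4240, 4081 and 4420 CPM at 72 h (log2 change 2.30, SE 0.10, adjusted p = 2.03e-17). Adipogenesis reached a similar mean of 5426 CPM, while chondrogenesis was at 74.0 CPM. The ligand Gdf15 rose from 0.286, 0.279 and 1.21 CPM to 5.07, 5.15 and 3.62 CPM (log2 change 1.86), and Klf10, an early TGF-β target, rose by 2.03. Bmp3, a ligand that opposes osteogenic BMPs, changed by 1.04 and was not called with a pseudocount of 0.1, after median-ratio or TMM scaling, in edgeR, or without replicate 2 at 72 h or replicate 1 at 0 h (0.90 and 0.89). The antagonist Nog (noggin) fell from 6.73, 6.96 and 10.3 CPM to 1.49, 1.25 and 1.66 CPM (log2 change -1.85), and Mstn (myostatin) fell from 2.58, 3.34 and 2.88 CPM to no read in the 3 samples, at least 6.43-fold.

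Wnt ligands stabilize β-catenin through Frizzled and Lrp receptors, and R-spondins, Lgr receptors and the ubiquitin ligase Rnf43 tune how many receptors stay on the surface. Of 20 tested Wnt genes 2 rose and 2 fell, with a median of 0.03 whose sign turned with the scaling. Beside Sfrp2, Rnf43 fell from 3.58, 3.62 and 5.31 CPM to 0.597, 0.312 and 0.151 CPM (log2 change -1.93). Wisp2, a matricellular Wnt target, rose from 0.573, 0.836 and 0.607 CPM to 6.27, 3.28 and 6.48 CPM (log2 change 1.88). Apcdd1, an inhibitor of Wnt receptors, had no read at 0 h and 2.24, 2.03 and 3.31 CPM at 72 h, at least 5.82-fold.

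In the insulin-like growth factor group, binding proteins carry the ligands outside the cell. Of 6 tested genes, 2 rose and 2 fell. Igfbp6 went from 438, 446 and 417 CPM to 1628, 1798 and 1874 CPM (log2 change 2.02, adjusted p = 5e-06), and it was above adipogenesis by 2.79 log2 units (2.31 without its replicate 3) and above chondrogenesis by 2.90. Igfbp5 went from 3.87, 5.99 and 6.67 CPM to 44.2, 51.8 and 53.2 CPM (log2 change 2.98, SE 0.74, adjusted p = 0.00219). It remained far below the 32633 CPM of chondrogenesis and the 10096 CPM of adipogenesis, whose samples ranged from 380 to 14956 CPM (mean 14954 CPM without its replicate 3). Stc1, the secreted stanniocalcin, fell from 68.9, 67.6 and 71.4 CPM to 5.82, 5.77 and 7.08 CPM (log2 change -3.29), while Igfbp3 was called lower, with a log2 change of -1.34. Igfbp3 was not called without the filter on low values, without replicate 2 or 3 at 72 h, or without replicate 1 or 3 at 0 h, where its change lay between -1.38 and -1.09.

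Of 13 tested genes of FGF and MAPK signalling, 1 rose and 3 fell, with a median of -0.24. Pdgfc, a ligand of platelet-derived growth factor receptors, rose from 0.430, 0.557 and 0.910 CPM to 5.82, 5.93 and 6.48 CPM (log2 change 2.13). Dusp4, the phosphatase that ERK signalling induces, had been at a mean of 379 CPM at 3 h and fell from 36.4, 37.9 and 36.7 CPM at 0 h to 4.33, 6.55 and 5.73 CPM at 72 h (log2 change -2.55, adjusted p = 6.31e-11). The ligand Fgf9 fell by 1.52. Ier3 was called lower, with a log2 change of -1.16, but without replicate 3 at 0 h the change was -0.71 (adjusted p = 0.137, limma), and it was not called in a fit of the 6 samples alone.

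Cells that copy their DNA and divide switch on a common set of genes, through E2F factors at the start of S phase and through MuvB with B-Myb and FoxM1 before mitosis, and the DREAM complex holds these genes down in resting cells. Of 32 tested genes of DNA replication and mitosis, 15 were lower at 72 h than at 0 h and 0 were higher, with a median log2 change of -0.89 (-0.96 with genes at 0 reads set to their bound). Over all tested genes, 5.29% were DEGs that were lower.

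Promoters of 2 of the lower genes are printed because they hold both the CHR element, TTTGAA, and CCAAT. These motifs and the NF-κB motif were searched on both strands in the 250 bases before each RefSeq gene start (build GRCr8). Capitals mark the matches of the first 2 motifs. The Birc5 promoter also holds 2 matches of the NF-κB motif, 176 and 52 bases before the start, which are not marked. The first is chr10:103571896-103572145 on the + strand and the second is chr5:137255800-137256049 on the - strand, printed 5′ to 3′ towards the gene start.
Birc5: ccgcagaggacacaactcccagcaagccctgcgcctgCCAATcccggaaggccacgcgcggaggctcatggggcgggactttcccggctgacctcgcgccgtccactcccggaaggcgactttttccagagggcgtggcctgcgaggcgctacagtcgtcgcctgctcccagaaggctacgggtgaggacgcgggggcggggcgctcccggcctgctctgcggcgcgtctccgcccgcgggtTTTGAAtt
Cdc20: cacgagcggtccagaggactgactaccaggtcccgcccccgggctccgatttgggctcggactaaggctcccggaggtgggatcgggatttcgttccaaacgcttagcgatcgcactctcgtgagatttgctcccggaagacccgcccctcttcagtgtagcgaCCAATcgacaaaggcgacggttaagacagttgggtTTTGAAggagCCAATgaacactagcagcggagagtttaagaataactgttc
Of the 14 promoters found for the 15 lower genes, 6 held TTTGAA (42.9%), against 16.2% of all 33469 promoters and 10.7% of the 3458 promoters of tested genes, and 12 held CCAAT (85.7%) against 34.0% of all promoters. The NF-κB motif was in 1 of the 14 (7.14%). A match of letters is a description, and no binding was measured.

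Birc5, which encodes survivin of the chromosomal passenger complex, went from 14.3, 21.9 and 12.7 CPM to 1.34, 1.40 and 1.36 CPM (log2 change -2.83, SE 0.19, adjusted p = 3.54e-13). Cdc20, the activator of the anaphase-promoting complex, went from 38.1, 43.6 and 38.2 CPM to 6.27, 9.99 and 11 CPM (log2 change -2.05). Of the mitotic kinesins, Kif20a went from 104, 113 and 90.8 CPM to 11.6, 9.99 and 9.94 CPM (log2 change -3.17), and Kif11 went from 84.7, 81.8 and 80.5 CPM to 11.3, 12.5 and 14.2 CPM (log2 change -2.61).

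Of the other kinetochore and spindle genes, Nuf2 fell by 2.72, Cenpa, the centromeric histone, by 1.97, Hmmr by 1.82 and Cdca3 by 1.27. Of the replication genes, the helicase subunit Mcm3 went from 63.5, 73.1 and 66.4 CPM to 18.8, 18.1 and 22.9 CPM (log2 change -1.72), and Mcm4 and Mcm6 fell by 1.12 and 1.09. Cdt1, which loads the helicase on DNA, and Gins1, which activates it, each fell by 2.21. Mki67 is not analysed here.

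The course between 0 h and 72 h was not a steady decline. At 12 h of osteogenesis, 30 of the 32 genes were higher than at 0 h and 0 were lower, with a median of 2.65, against 14.7% of all tested genes that were higher. Then 31 of 32 were lower at 72 h than at 12 h, with a median of -3.28 (30 of 32 after median-ratio or TMM scaling), against 13.5% of all tested genes. Kif20a, for instance, had means of 507 CPM at 3 h and 788 CPM at 12 h, and Mcm6 of 444 and 1212 CPM. At 72 h, 15 of the 32 were lower in osteogenesis than in chondrogenesis and 0 were higher, where 11.1% of all tested genes were lower. Against adipogenesis 5 were higher and 0 lower (4 higher without replicate 3 of adipogenesis), where 9.21% of all tested genes were higher. Compared with 0 h, adipogenesis at 72 h had 15 of the 32 lower and 0 higher (median -0.92), and chondrogenesis had 7 higher and 0 lower (median 0.2). Kif20a stood at a mean of 212 CPM in chondrogenesis and 3.38 CPM in adipogenesis (4.35 CPM without its replicate 3).

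**Figure D4:**
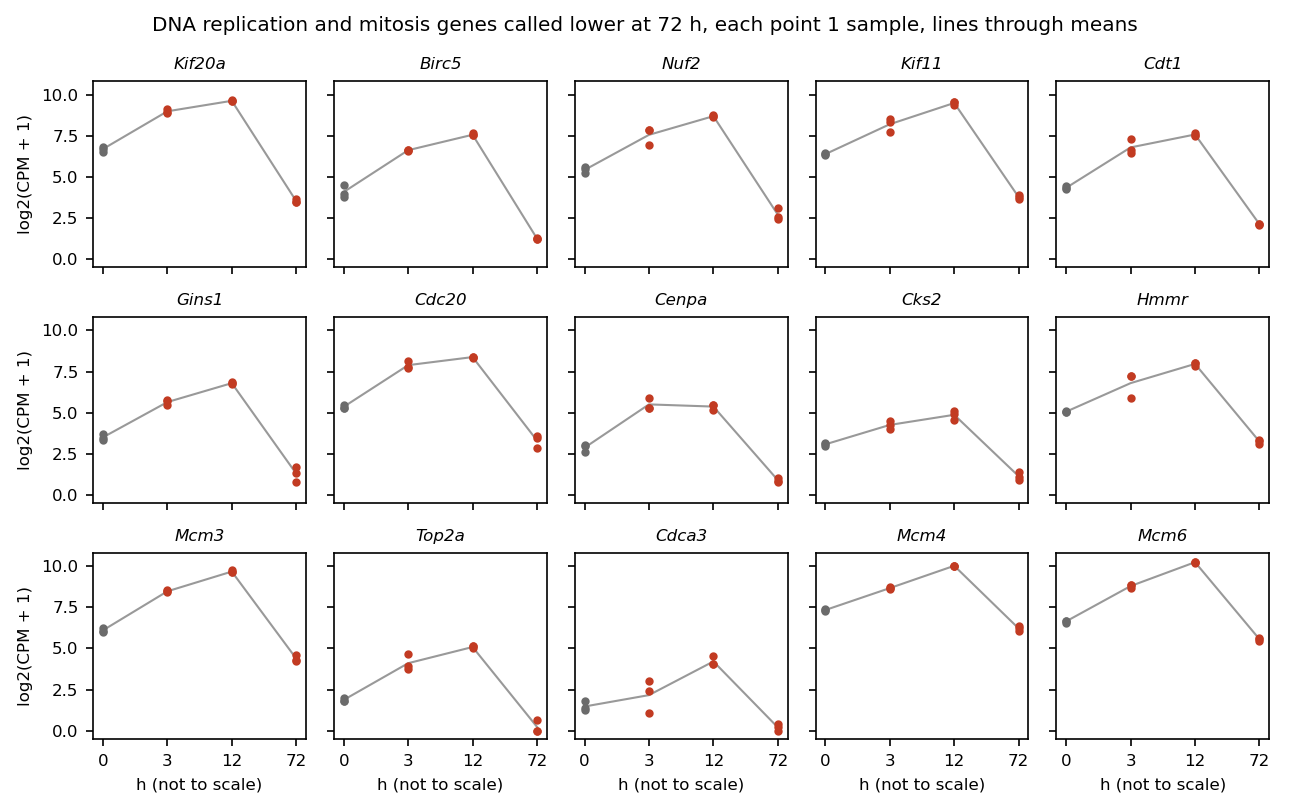
log2(CPM + 1) of the 15 genes of DNA replication and mitosis that were lower at 72 h, in each sample (points) at 0 h (grey) and after 3, 12 and 72 h in osteogenic medium (red), with lines through the group means and a time axis that is not to scale. Kif20a climbs to a mean of 788 CPM at 12 h and ends at 9.94 to 11.6 CPM at 72 h, below its level at 0 h.

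Of 8 tested genes that restrain the cycle or mark resting cells, 4 rose and 0 fell, with a median of 1.09. These were Txnip, Gas6, Ccnd2 and Ccng1, a p53 target that went from 318, 317 and 364 CPM to 791, 872 and 892 CPM (log2 change 1.35, adjusted p = 1.72e-08). Ccnd2 was put on the list although, as a D-type cyclin, it drives cells out of G1.

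Chemokines and cytokines of stromal cells draw in and instruct leukocytes, and many of them are known targets of NF-κB. Of 19 tested, 11 fell (57.9%, against 5.29% of all tested genes) and 0 rose, with a median log2 change of -1.52 (-2.04 with genes at 0 reads set to their bound). The promoters of 2 of them are shown because each holds a match to the NF-κB motif, in capitals, in the 250 bases before the RefSeq gene start (GRCr8). The first is chr4:5894576-5894825 on the - strand and the second chr10:67513845-67514094 on the + strand, both printed 5′ to 3′.
Il6: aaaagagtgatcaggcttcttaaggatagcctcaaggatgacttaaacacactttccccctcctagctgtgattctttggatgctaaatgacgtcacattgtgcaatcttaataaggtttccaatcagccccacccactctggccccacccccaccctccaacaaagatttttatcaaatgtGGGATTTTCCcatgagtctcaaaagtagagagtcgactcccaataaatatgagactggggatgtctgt
Ccl7: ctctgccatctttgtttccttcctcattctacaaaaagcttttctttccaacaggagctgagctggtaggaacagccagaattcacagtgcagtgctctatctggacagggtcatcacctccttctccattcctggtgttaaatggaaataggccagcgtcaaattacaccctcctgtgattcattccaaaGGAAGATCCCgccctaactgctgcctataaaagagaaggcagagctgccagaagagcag
Of the 9 promoters found for the 11 lower genes, 5 held the motif on either strand (55.6%), against 6.33% of all promoters and 8.33% of those of tested genes. Of the same 9, 1 held TTTGAA (11.1%) and 3 held CCAAT (33.3%), among them Il6, whose 2 CCAAT matches are not marked. No binding was measured.

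Il6, a cytokine that also acts on osteoclasts, went from 43.4, 39.3 and 44.1 CPM to 1.04, 0 and 0.603 CPM (log2 change -4.86, SE 0.29, adjusted p = 4.15e-14). The fall had come early, with a mean of 2.02 CPM at 3 h, and adipogenesis at 72 h had 8.01 CPM (9.24 CPM without its replicate 3). Ccl7 and Ccl2 attract monocytes. Ccl7 went from 1116, 1130 and 1145 CPM to 100, 84.6 and 91.9 CPM (log2 change -3.60), and Ccl2 went from 1428, 1257 and 1429 CPM to 149, 172 and 160 CPM (log2 change -3.09). Both were lower than in adipogenesis at 72 h, by 2.50 and 2.24 on the log2 scale (by 3.42 and 3.08 without its replicate 3). The fall of the list was not particular to osteogenic medium. Of the 19 tested genes, 13 were lower and 0 higher than at 0 h at 72 h of chondrogenesis (median -1.46). At 72 h of adipogenesis 7 were lower and 4 higher (median -0.74).

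Cxcl1, the neutrophil attractant, went from 2996, 3574 and 3120 CPM at 0 h to 603, 592 and 640 CPM at 72 h (log2 change -2.40, SE 0.13, adjusted p = 2.8e-15). In between it had been higher, at means of 6934 CPM at 3 h and 7292 CPM at 12 h. Adipogenesis kept 1657 CPM (1723 CPM without its replicate 3) and chondrogenesis 209 CPM at 72 h, above and below osteogenesis.

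The interleukin-1 genes reached 0. Il1a went from 9.74, 8.64 and 5.61 CPM to no read in the 3 samples at 72 h, at least 17.5-fold lower, and Il1b went from 1.86, 2.09 and 1.67 CPM to no read, at least 4.11-fold lower. Csf2, the growth factor GM-CSF, had 22 to 30 reads in each sample at 0 h and at most 1 read at 72 h (log2 change -2.13). Cxcl2 and Cxcl3 fell by 2.15 and 1.19. Cxcl6 was called lower, with a log2 change of -2.11, but not without replicate 1 at 72 h (-2.03) or replicate 1 at 0 h (-1.92). The Cxcl genes resemble one another in sequence, and how the authors' counting split shared reads was not tested.

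**Figure D5:**
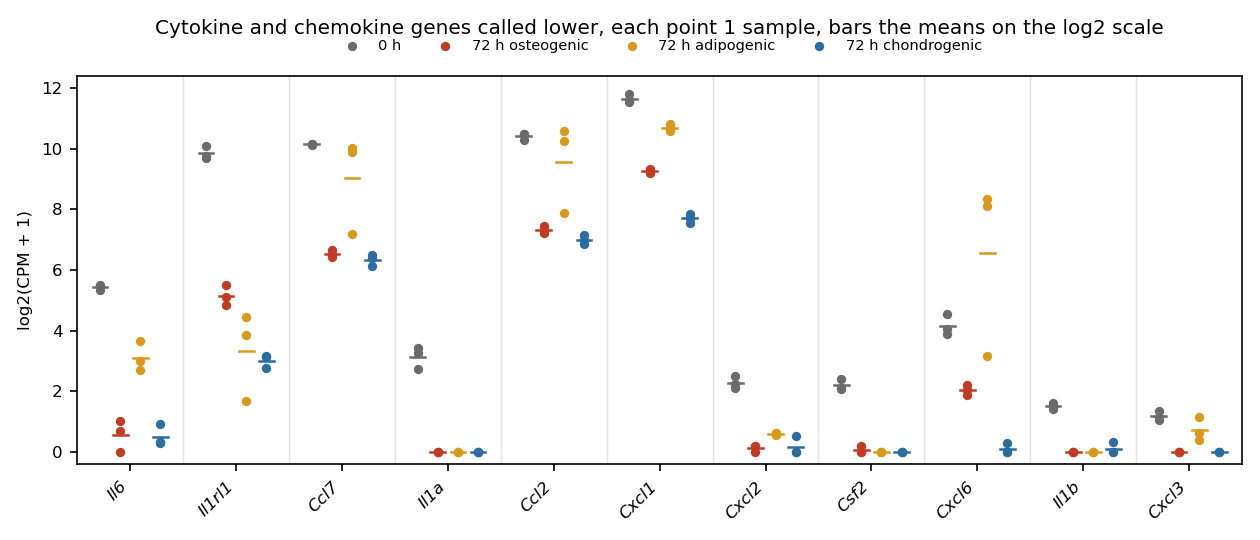
log2(CPM + 1) of the 11 cytokine and chemokine genes that were lower, in each sample (points) with group means (bars) at 0 h (grey) and at 72 h of osteogenesis (red), adipogenesis (yellow) and chondrogenesis (blue). Cxcl1 lies at 592 to 640 CPM in osteogenesis against 2996 to 3574 CPM at 0 h, and Il1a has no read in the red samples.

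Of 17 tested interferon-response genes, 2 rose and 1 fell, with a median of 0.07. The guanylate-binding proteins Gbp2 and Gbp5 rose by 1.78 and 1.35, and Plscr1, a membrane scramblase, fell by 1.28.

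Of 21 tested matrix proteases and inhibitors, 3 rose (14.3%, against 7.2% of all tested genes) and 2 fell (9.52%, against 5.29%), with a median of 0.27. Nothing is read from these counts. Adamts1, a protease that cuts proteoglycans, fell from 8703, 8679 and 8337 CPM to 1547, 1533 and 1648 CPM (log2 change -2.44, SE 0.14, adjusted p = 1.23e-14). It had reached 1498 CPM by 12 h. Plau, the urokinase that activates plasmin, rose from 1.72, 1.53 and 3.49 CPM to 32.7, 31.2 and 28.3 CPM (log2 change 3.34, adjusted p = 1.96e-09). Serpinf1, which encodes the pigment epithelium-derived factor whose loss causes brittle bone, rose from 1579, 1466 and 1662 CPM to 3665, 3386 and 3410 CPM (log2 change 1.15). Mmp15 was called higher, with a log2 change of 1.04, but not without replicate 2 or 3 at 72 h (0.85 and 0.87), and the cathepsin Ctsz fell by 1.32.

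Of 29 tested contractile and cytoskeletal genes, 1 rose and 5 fell, with a median of -0.20. After median-ratio or TMM scaling 9 fell. Beside Cnn1, Myh10, a non-muscle myosin heavy chain, went from 7812, 7945 and 7498 CPM to 1231, 1299 and 1286 CPM (log2 change -2.61, SE 0.11, adjusted p = 5.25e-18), while chondrogenesis had 13104 CPM. The tropomyosins Tpm2 and Tpm4 fell by 1.65 and 1.09, and Cyr61, a target of mechanical signalling, by 1.26. Hspb7, a small heat shock protein of muscle, rose from 1618, 1704 and 1860 CPM to 6324, 6296 and 6309 CPM (log2 change 1.87).

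Among 35 tested integrins, cadherins and junction genes, 5 rose and 2 fell, with a median of -0.24. Beside Cldn1, the protocadherin Pcdh1 rose from 0.286, 0.836 and 0.455 CPM to 10.6, 8.58 and 7.08 CPM (log2 change 2.68), and Itgb7 and Pcdh20 rose by 1.49 and 1.37. Gja1, the connexin 43 that joins bone cells, fell from 936, 888 and 1080 CPM to 425, 359 and 361 CPM (log2 change -1.34, adjusted p = 5.19e-06), and the connexin Gjb2 fell by 2.35.

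Cells in low oxygen stabilize HIF factors and raise glycolysis. Of 20 tested genes of this group, 7 fell and 2 rose, with a median of -0.77. Ldha, the lactate dehydrogenase subunit, fell from 2583, 2798 and 2677 CPM to 1255, 1234 and 1312 CPM (log2 change -1.08, adjusted p = 5.53e-07), after a mean of 6505 CPM at 12 h. Egln3, an oxygen sensor that HIF itself induces, fell from 157, 150 and 168 CPM to 26.4, 26.1 and 25.9 CPM (log2 change -2.55), and Pdk1, which keeps pyruvate out of mitochondria, fell by 1.34. Ndrg1 went against the group, from 64.6, 66.9 and 67.8 CPM to 576, 523 and 550 CPM (log2 change 3.03, SE 0.28, adjusted p = 3.41e-10), as did Epas1, which encodes HIF-2α, by 1.65.

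Of the other metabolic groups, 19 tested genes of cholesterol and fatty acid synthesis held no DEG and had a median of -0.03. The 37 respiratory chain genes had a median of 0.08, equal to that of all tested genes, with a sign that turned with the scaling. Of 21 tested genes of protein folding and the endoplasmic reticulum stress response, 1 rose, Phgdh, which opens serine synthesis, from 7.59, 10.4 and 7.89 CPM to 37.0, 39.2 and 37.1 CPM (log2 change 2.02). In edgeR the median of that list turned from 0.13 to -0.02.

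Of 31 tested ribosomal protein genes, 7 rose and 0 fell, with a median of 0.75. Only 3 were called after median-ratio or TMM scaling and 4 in edgeR. Rplp0, a stalk protein, went from 2193, 2099 and 2490 CPM to 5819, 4978 and 5557 CPM (log2 change 1.27). Genes of this family have near-identical pseudogene copies, and their levels are uncertain where counting could split reads.

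Among 87 tested solute carriers, 9 rose (10.3%) and 6 fell (6.9%), with a median of 0.12, which is near the 7.2% and 5.29% of all tested genes. Slc1a5, the glutamine transporter, rose from 65.7, 63.1 and 79.5 CPM to 262, 269 and 252 CPM (log2 change 1.90, adjusted p = 2.22e-10), and Slc48a1, a heme transporter, rose from 323, 338 and 313 CPM to 711, 768 and 833 CPM (log2 change 1.24). Slc2a13, a myo-inositol transporter, rose by 2.38. Slc15a3, a peptide transporter of lysosomes, fell from 10.2, 13.1 and 7.43 CPM to 0.298, 0 and 0.151 CPM (log2 change -3.26), and Slc1a1, a glutamate transporter, fell by 2.0 on the log2 scale.

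Markers of the other 2 lineages were looked at in the osteogenic samples. Of 13 tested adipocyte markers, 4 rose and 0 fell, with a median of 0.49. Pparg, the fat regulator, had 1 read in the 3 samples at 0 h and 2.24, 2.50 and 1.81 CPM at 72 h, a ratio of 45.2 with an exact interval from 7.69 to 1826 that covers counting error only (log2 change 1.6, adjusted p = 2.29e-07). This was above the adipogenic mean of 0.376 CPM (0.0887 CPM without replicate 3), by 1.26 log2 units (1.55 without its replicate 3). Dgat2, which makes triglyceride, rose from 32.7, 24.9 and 34.0 CPM to 121, 109 and 102 CPM (log2 change 1.84), with 82.8 CPM in adipogenesis. Cfd, the adipokine adipsin, reached 4.18, 4.52 and 5.12 CPM (log2 change 2.30) but was lower than the 23.8 CPM of adipogenesis (32.0 CPM without its replicate 3). Pnpla2, a fat-mobilizing lipase, rose by 1.34.

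Of 9 tested chondrocyte markers, 1 rose and 0 fell, with a median of -0.12. It was Ncam1, the neural cell adhesion molecule of early cartilage condensations, at 0.286, 0.139 and 0 CPM at 0 h and 4.33, 3.59 and 2.56 CPM at 72 h (log2 change 1.96). Sox9, the cartilage regulator, stood at 46.6, 46.8 and 50.8 CPM at 0 h and at 35.7, 29.6 and 30.1 CPM at 72 h, without overlap, but its log2 change of -0.58 was under the threshold. Chondrogenesis had a mean of 1299 CPM.

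Semaphorins, ephrins and neurotrophin receptors guide axons and also act between bone cells. Of 26 tested, 10 rose (38.5%, against 7.2% of all tested genes) and 1 fell (3.85%, against 5.29%), with a median of 0.57. Sema3d, a secreted semaphorin, went from 400, 404 and 390 CPM to 1099, 1285 and 1296 CPM (log2 change 1.62, SE 0.49, adjusted p = 0.0113). Sema7a, a membrane-anchored one, went from 12.3, 9.47 and 7.58 CPM to 40.9, 35.6 and 45.4 CPM (log2 change 1.96), below its mean of 638 CPM at 3 h. Gldn, the adhesion protein gliomedin, went from 1.86, 1.11 and 1.67 CPM to 22.2, 18.1 and 20.2 CPM (log2 change 3.06), also below its mean of 294 CPM at 3 h. Sema3e and the ligand Efnb1 each rose by 1.35, Sema6d by 1.42 and Ncam1 by 1.96, and Sema5a, Ngfr and Ntrk2 were called higher, with log2 changes of 1.09, 1.16 and 1.04. Sema5a was not called with a pseudocount of 0.1 or without replicate 2 or 3 at 72 h or replicate 3 at 0 h (0.95 to 1.03). Ngfr was not called without replicate 2 at 72 h (0.81), and Ntrk2 was not called without the filter on low values, without that replicate (0.73) or without any 1 replicate at 0 h. Slit3, a ligand of Robo receptors, was called lower, with a log2 change of -1.17, but its samples overlapped between the groups, and it was not called with a pseudocount of 0.1, with the 6 samples alone, or without replicate 3 at 72 h (-0.93) or replicate 1 or 2 at 0 h (-0.93 and -1.11).

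Of the 6 tested mesenchymal markers, Cd81, a tetraspanin, rose from 653, 658 and 673 CPM to 1711, 1598 and 1792 CPM (log2 change 1.36), and Thy1, the CD90 antigen used to identify BMSCs, fell from 8140, 7736 and 8280 CPM to 3788, 3638 and 3695 CPM (log2 change -1.12, adjusted p = 3.06e-09). Thy1 was nonetheless above adipogenesis by 3.12 log2 units (3.18 without its replicate 3), which had a mean of 427 CPM. Cd44 went from a mean of 600 CPM to 302 CPM and was not called on CPM. After median-ratio or TMM scaling, and in edgeR, 2 markers of this list were called lower. Of 5 tested pericyte and smooth muscle markers, the proteoglycan Cspg4 rose from 23.3, 30.6 and 28.8 CPM to 81.0, 81.3 and 86.6 CPM (log2 change 1.56), Notch3 rose by 1.21 (0.96 and not called without replicate 1 at 72 h), and Cnn1 was the one that fell.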

How the data were processed

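RNA of 30 samples (depleted of ribosomal RNA per the labels, but selected for mRNA per the study's methods) was sequenced on an Illumina NovaSeq, and, per the labels, reads passed through Trimmomatic, HISAT2 and StringTie, of versions and a build not given in the sources used here. The values the authors deposited under the name FPKM were CPM: 100% of nonzero values were whole multiples of 1 read, within 0.1 read. Whole-number reads were recovered from them. Rows sharing a gene name were summed (10803 rows, 9999 names).

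Genes reaching 1 CPM in at least 3 of the 30 libraries were tested with limma 3.58.1 (trend) on log2(CPM + 1), with all 10 groups in 1 fit and no covariate, and p-values were Benjamini-Hochberg adjusted over the 4363 genes. Log2 changes are on this scale, which understates those of low genes. DEGs had an absolute log2 change of at least 1 and an adjusted p under 0.05. Named genes were the 20 largest non-overlapping rises and falls, the called members of 31 lists and a few lineage genes whatever their result, and 2 of these genes are not reported here. Ratios from 1 to 3 reads carry exact 95% intervals, which, like the floor of 3 reads, cover counting error only. The members and lists were chosen with earlier results of these data known.

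Settings changed 1 at a time were the pseudocount (0.1), the filter (none), median-ratio or TMM scaling, edgeR 4.0.16 (quasi-likelihood) on the recovered reads, a replicate block, the 6 samples alone, rows kept apart, each replicate left out and, added after the data were seen, adipogenesis without replicate 3. The edgeR setting is the exception, as it changed the model and the scaling together. Replicate numbers did not pair the samples: deviations of same-numbered samples correlated at -0.0406, 0.0396 and -0.0774. Promoters came from RefSeq (GRCr8), which held one for 3206 of the 4363 tested genes. The scripts were tested on simulated data.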

Additional observations from a re-analysis of the deposited data

Results flagged for a closer look

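Several genes moved in opposite directions from 0 h in osteogenesis and in 1 of the other media at 72 h, and for each the difference between the 2 media passed the test. All values are osteogenesis minus the other medium on the log2 scale, and both media share the samples at 0 h.

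Against chondrogenesis, of the mitotic genes named, Birc5 differed by -4.48, Kif20a by -4.20, Nuf2 by -4.06, Hmmr by -3.23, Cenpa by -3.20 and Cdca3 by -2.45, each lower than 0 h in osteogenesis and higher than 0 h in chondrogenesis. The glutamate transporter Slc1a1 (-5.79), the tendon factor Scx (-4.35) and the collagen Col24a1 (-3.49) did the same. The opposite course, up in osteogenesis and down in chondrogenesis, was taken by Tgfbr3 (5.83), Dlx3 (4.28), Dgat2 (3.51), Gpnmb (2.56), Nfia (2.48) and Bmp3 (2.28).

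Against adipogenesis, Sfrp2 differed by -5.48 and the chemokine Cxcl6 by -4.50, both down in osteogenesis and up in adipogenesis, and by -7.31 and -6.19 without replicate 3 of adipogenesis. Up in osteogenesis and down in adipogenesis were Cspg4 (4.18, or 4.07 without that replicate), Sema7a (3.91, or 3.90), Itgbl1 (3.59, or 2.19), Sema3d (3.48, or 2.22), Hspb7 (3.28, or 2.93), Loxl3 (3.13, or 3.05) and Bmp3 (2.07, or 1.88). For 2 of them the fall in adipogenesis rests on replicate 3: without it, adipogenesis differed from 0 h by -0.04 for Itgbl1 (adjusted p = 0.899, limma) and by -0.60 for Sema3d, under the threshold of 1. Bmp3, at -0.84, was under it as well. The cause of these differences was not tested.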

How the results depend on the processing

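The 545 DEGs against 0 h were 546 to 562 when 1 replicate was left out, 543 without the filter or with rows kept apart, 545 with the 6 samples alone, 558 and 563 after median-ratio and TMM scaling, 692 in edgeR (of which 357 were lower, against 231) and 718 with a pseudocount of 0.1. The replicate block gave 545 as well and changed no call of the 172 named genes. The block rests on shared numbers only, and not every sample correlated best with its own number.

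Counts of DEGs within a list moved by over 1.5 times as follows. With a pseudocount of 0.1, collagens held 3, adipocyte markers 7, contractile genes 11 and integrins, cadherins and gap junctions 11. With median-ratio or TMM scaling, contractile genes held 10, ribosomal proteins 3, endoplasmic reticulum genes 2 and endothelial markers 1. In edgeR, collagens held 4, interferon genes 5, contractile genes 11, endoplasmic reticulum genes 2, ribosomal proteins 4, respiratory chain genes 1 and integrins, cadherins and gap junctions 12. Without the filter, endothelial markers held 1. With 1 replicate left out, collagens held 0 to 2, endoplasmic reticulum genes 1 to 2, respiratory chain genes 0 to 1 and endothelial markers 1 to 2. The cause was not tested.

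Of the named genes, Ibsp changed sign, at -0.05 after median-ratio or TMM scaling, -0.02 in edgeR and between -0.17 and 0.29 with 1 replicate left out. Calls were lost in at least 1 setting that left out a replicate for Msx2, Col24a1, Mgst1, Bmp3, Igfbp3, Ier3, Cxcl6, Mmp15, Aldoa, Pkm, Rpl4, Rps18, Rps27l, Slc45a1, Slco2a1, Ngfr, Ntrk2, Sema5a, Slit3, Mmrn2 and Notch3, and Mgp passed the threshold, at 1.01, without replicate 1 at 72 h. At this depth, genes under about 0.5 CPM were not detectable.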
